A study of Mus musculus with 6 samples.

Results

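The genes described here encode the basement membrane and the embryonic extracellular matrix: 37 genes for laminin chains, nidogens, basement membrane proteoglycans, collagen IV chains, multiplexin collagens, fibulins, interstitial matrix proteins, the Fraser complex and dystroglycan. They were chosen by name, and every member had at least 1 probe. The arrays held 32530 genes as counted here. Of these 20026 had a gene symbol, and the others were targets counted under the array's own identifier. Arrays were hybridised with RNA of mouse trunks dissected at embryonic day 9.5, a piece that reaches from the level of the otic vesicle down to somite 15 and includes the forelimbs. Embryos labelled null for Arid3b, the gene of a DNA-binding protein, were set against wild-type embryos. There were 3 samples a group, each a pool of 4 embryos, so that errors below rest on the spread between pools and not between embryos. The strain and the way the null allele was made are not given in the sources used here.

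A basement membrane is a thin sheet of matrix beneath epithelia and around muscle, nerve and vessels. Laminins, trimers of an alpha, a beta and a gamma chain, assemble into one network on the cell surface, and collagen IV chains form another. Nidogens and the heparan sulfate proteoglycans perlecan and agrin connect these networks, while fibronectin, fibrillins and versican fill the mesenchyme beneath. In the trunk of the embryo such sheets wrap the neural tube, the somites, the gut and the surface ectoderm.

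Values are log2 signals relative to the 75th percentile of each array, so that 0 is that percentile, which lay between 611 and 844 units of processed signal on the 6 arrays. Levels are compared between groups within a probe, not between probes. A gene is said to have risen or fallen where its limma test passed an adjusted p of 0.05 over all 19792 genes tested. Of these 14208 had a gene symbol, and the shares of all genes below include those without one. In bulk tissue, fewer cells of a type and less RNA per cell cannot be told apart. As a check of the labels, Arid3b read 0.54, 0.65 and 0.46 in Arid3b-null trunks, against 2.18, 2.57 and 1.97 in wild type (-1.69 ± 0.17 log2, SE, limma adjusted p = 0.00154). The signal in Arid3b-null trunks was 31.0% of wild type and stayed well above background on all 3 arrays, and which part of the transcript the probe covers relative to the null allele was not examined.

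Most genes of the laminin, nidogen and proteoglycan groups were higher in Arid3b-null trunks, while most interstitial matrix genes did not pass the test. Of 37 members 36 were bright enough to be tested, 35 of them on all arrays of both groups. Of these 36, 18 rose and 2 fell (5.56%), 20 in all (55.6%), where 13.6% of all genes tested rose and 12.9% fell, 26.6% in all. The remaining 16 did not pass. The rises ran from 1.37-fold for Col4a1 to 2.75-fold for Lamb3, and 5 of them (Lamb3, Lama5, Lamb1, Nid2 and Col4a6) were at least 2-fold, a size that 3.70% of all genes reached as a rise and 2.85% as a fall. For Col4a6 that size rests on its brighter probe, and the mean of its tested probes was 1.40-fold higher. Lamb3 was dim, and its rise was between 1.06-fold and 1.88-fold under the normexp settings. The falls were Lamc3 and Fbln5.

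The median log2 change of the tested members was 0.51, beside -0.04 over all genes tested, and 0.49, 0.65 and 0.51 within the 3 slides, each of which held an array of either group. Arid3b-null arrays all lay above wild type in 22 members and all below in 3, 25 in all (69.4%). Over all genes 23.0% lay above, 23.2% below and 46.2% either way. The Col4a4 probe entered the test through its wild-type arrays alone, as it was well above background on 2 of 3 Arid3b-null arrays. With 1 array left out, the number of members that rose was 10 without wild type replicate 1, and between 13 and 18 without any other. The count of all genes that passed dropped too, from 5256 with all arrays to 2866 without wild type replicate 1. Without any other array it lay between 3430 and 3934.

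**Figure D1:**
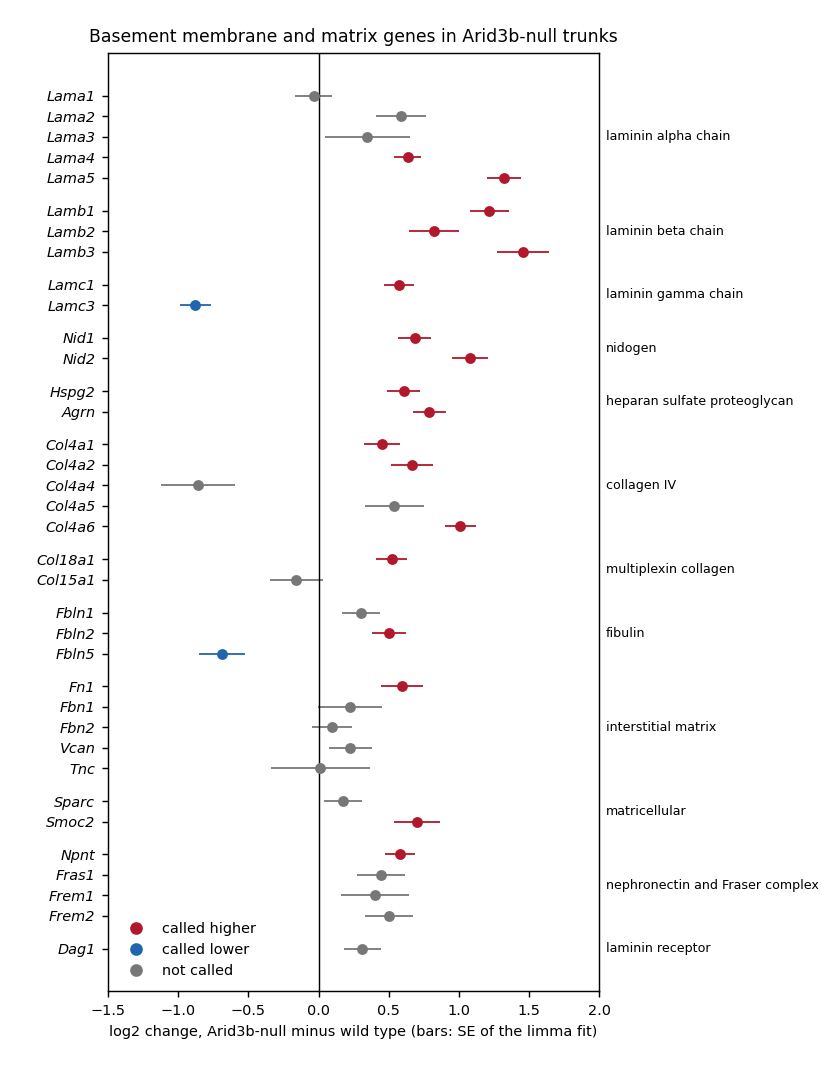
Log2 change (Arid3b-null minus wild type, horizontal axis) of the 36 tested genes, grouped by role, with the SE of the limma fit as bars. The 3 beta chain genes, both nidogens and both proteoglycan genes lie to the right of 0 and passed the test, while Lamc3 and Fbln5 lie to the left and passed.

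**Figure D2:**
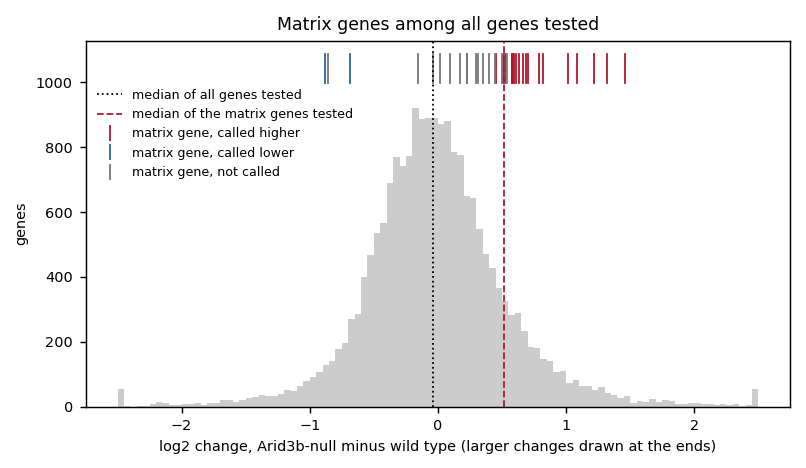
Histogram of the log2 changes (Arid3b-null minus wild type) of all 19792 genes tested, with a tick above it for each matrix gene, coloured by its call. The median of the matrix genes is 0.51 and the median of all genes -0.04.

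Of the 10 laminin chain genes, 6 rose, 1 fell and 3 did not pass the test. Lama5 encodes the alpha chain of most epithelial basement membranes from mid-gestation on. It read 3.34, 3.53 and 3.40 in Arid3b-null trunks, against 1.98, 2.27 and 2.06 in wild type. All Arid3b-null arrays lay above all wild-type arrays by more than 1 log2 unit, and Lama5 rose 2.50-fold (1.32 ± 0.12 log2, SE, limma adjusted p = 0.00115). Lama4 encodes an alpha chain of vessel and mesenchymal basement membranes. It read 0.31, 0.26 and 0.20 in Arid3b-null trunks, against -0.34, -0.37 and -0.43 in wild type, a rise of 1.55-fold (0.64 ± 0.10 log2, SE, limma adjusted p = 0.00563) with little spread within either group.

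The other alpha chain genes did not pass. Lama1, the alpha chain gene of the earliest embryonic basement membranes, read 3.21, 3.55 and 3.17 in Arid3b-null trunks, against 3.33, 3.42 and 3.29 in wild type. Its groups overlapped and its change was -0.04 ± 0.13 (log2, SE, limma adjusted p = 0.866), with a sign that turned under 7 of 17 alternative settings. Lama2 encodes the alpha chain of muscle basement membranes. It read -1.21, -0.56 and -0.83 in Arid3b-null trunks, against -1.39, -1.40 and -1.56 in wild type, without overlap (0.59 ± 0.18 log2, SE, limma adjusted p = 0.0517). It was called higher under 4 of 17 alternatives: normexp with local background and quantile normalization (adjusted p = 0.0430), normexp with the array's median background (0.0284), slide as a random block (0.0380) and removal of Arid3b-null replicate 1 (0.0226). Over all alternatives it had an adjusted p of up to 0.752. Lama3, the alpha chain gene of the epidermal laminin, read -3.08, -4.17 and -3.04 in Arid3b-null trunks, against -3.81, -3.85 and -3.67 in wild type. Here Arid3b-null replicate 2 stood below the other arrays and the groups overlapped (0.35 ± 0.30 log2, SE, limma adjusted p = 0.437), and without that array Lama3 was called higher, by 0.72 on the log2 scale (adjusted p = 0.0172).

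All 3 beta chain genes rose. Lamb1, the beta chain gene most widely used in the embryo, read 4.07, 4.42 and 4.05 in Arid3b-null trunks, against 2.87, 3.08 and 2.94 in wild type. The lowest Arid3b-null array lay well above the highest wild-type array, and the rise was 2.33-fold (1.22 ± 0.14 log2, SE, limma adjusted p = 0.00226). Lamb2, known from the neuromuscular junction and the kidney filter, read 0.81, 1.25 and 1.21 in Arid3b-null trunks, against 0.25, 0.51 and 0.05 in wild type and rose 1.77-fold (0.82 ± 0.18 log2, SE, limma adjusted p = 0.0170). The Lamb2 call was lost without Arid3b-null replicate 2 (adjusted p = 0.0555) or 3 (0.0581) and without wild type replicate 1 (0.0588). Lamb3, the beta chain gene of the epidermal laminin, read -2.69, -2.26 and -2.44 in Arid3b-null trunks, against -3.99, -3.61 and -4.17 in wild type. It rose 2.75-fold (1.46 ± 0.18 log2, SE, limma adjusted p = 0.00307), the largest fitted rise among the members. Its signal was dim, and under normexp with local background and quantile normalization the rise was 1.62-fold (adjusted p = 0.00620). Under normexp with local background and 75th percentile scaling Lamb3 was 1.06-fold higher and did not pass (adjusted p = 0.931). No other member passed in that setting either, the bright ones included.

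The gamma chain genes went opposite ways. Lamc1, whose chain is part of most laminins, read 3.53, 3.51 and 3.52 in Arid3b-null trunks, against 2.91, 3.07 and 2.86 in wild type. The 3 Arid3b-null arrays were nearly equal and above wild type, a rise of 1.49-fold (0.57 ± 0.10 log2, SE, limma adjusted p = 0.00984). Lamc3, a gamma chain of restricted expression known from brain and retina, read -2.63, -2.81 and -2.59 in Arid3b-null trunks, against -1.71, -1.80 and -1.88 in wild type. It fell 1.84-fold (-0.88 ± 0.11 log2, SE, limma adjusted p = 0.00307), with all Arid3b-null arrays below wild type. Its signal was dim. Under normexp with local background and quantile normalization the fall was 1.45-fold (limma adjusted p = 0.00393). With the array's median background it was 1.53-fold (limma adjusted p = 0.00336). With local background and 75th percentile scaling Lamc3 was 2.06-fold lower and did not pass (limma adjusted p = 0.392).

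Laminin chains were also compared with each other, as the log2 ratio of 2 probes within each array. Over all members 9 such ratios were computed, chosen after the values were seen, and none could pass a threshold of 0.05 with 3 arrays a group. The ratio of Lama5 to Lama1 was higher in Arid3b-null by 1.36 ± 0.09 (log2, SE), that of Lama5 to Lamc1 by 0.75 ± 0.08 and that of Lamb1 to Lamc1 by 0.64 ± 0.13, each without overlap of the groups. The ratio of Lamc3 to Lamc1 changed by -1.45 ± 0.09. For each of these the two-sided exact permutation p was 0.1, the smallest that 3 against 3 arrays can give (0.113 adjusted over the 9). The ratio of Lamb2 to Lamc1 differed by 0.25 ± 0.17 with overlap (exact permutation p = 0.3). A ratio does not show which of its chains changed.

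The promoters of Lama5 and Lamb1 are shown because these chains rose at least 2-fold and their probes were bright. They are RefSeq windows of build GRCm38.p6, from 250 bases before to 50 after the annotated start. Lama5 lies at chr2:180225810-180226109 on the minus strand and Lamb1 at chr12:31265043-31265342 on the plus strand. Capitals mark the GC box GGGCGG, the known binding sequence of the Sp1 family, on either strand.
Lama5: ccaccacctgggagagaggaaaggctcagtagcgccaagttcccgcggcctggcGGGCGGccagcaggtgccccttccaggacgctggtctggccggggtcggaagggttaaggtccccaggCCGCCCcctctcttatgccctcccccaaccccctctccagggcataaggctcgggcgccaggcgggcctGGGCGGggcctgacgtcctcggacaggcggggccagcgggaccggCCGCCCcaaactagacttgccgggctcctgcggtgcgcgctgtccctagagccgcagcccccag
Lamb1: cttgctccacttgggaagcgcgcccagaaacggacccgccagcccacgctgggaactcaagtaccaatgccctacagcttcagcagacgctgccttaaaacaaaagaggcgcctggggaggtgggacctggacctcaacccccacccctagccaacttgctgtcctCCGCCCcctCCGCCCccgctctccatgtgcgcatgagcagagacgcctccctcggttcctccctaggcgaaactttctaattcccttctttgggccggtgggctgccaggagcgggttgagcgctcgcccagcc
The Lama5 window holds 4 GC boxes and the Lamb1 window 2. In all, 26 members had 35 windows, of which 22 (62.9%) held a GC box, beside 35.7% of the 32851 windows of 300 bases in the table. The members' windows were also richer in G and C, with a median of 60.3%, beside 52.7% over all windows.

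**Figure D3:**
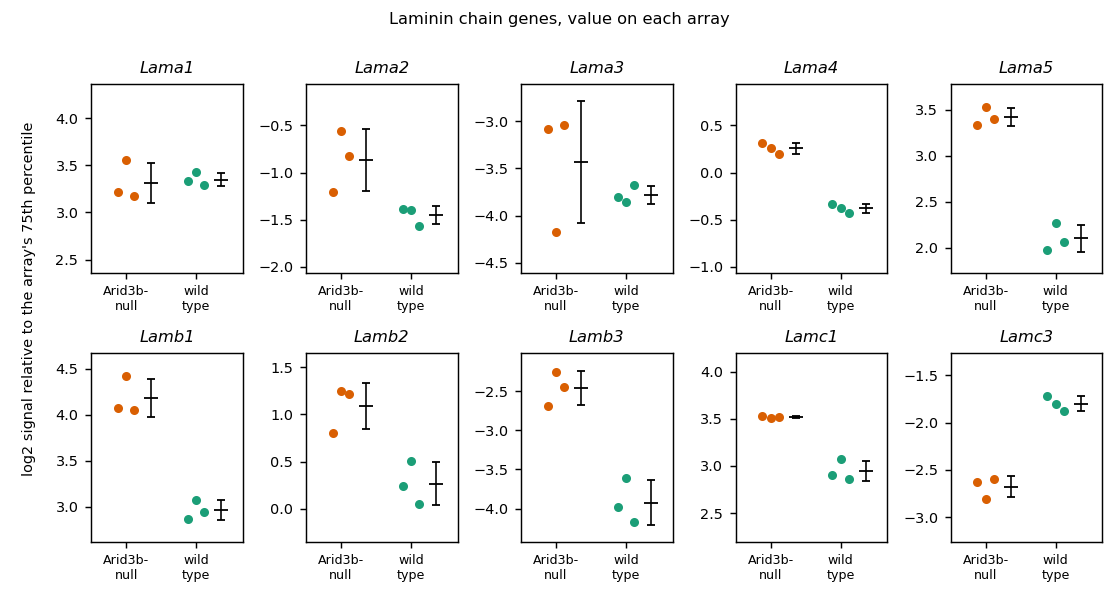
Log2 signal relative to the array's 75th percentile for the 10 laminin chain genes. Points are arrays (Arid3b-null left, wild type right), and the bar beside them is the mean with its SD (n = 3). Each panel has its own vertical range, and the groups overlap in the panels of Lama1 and Lama3.

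Both nidogen genes rose. Nid1 read 1.75, 2.06 and 1.84 in Arid3b-null trunks, against 1.15, 1.20 and 1.24 in wild type, a rise of 1.61-fold (0.69 ± 0.12 log2, SE, limma adjusted p = 0.00840). Its other 2 tested probes, both dim, moved the same way, by 0.59 ± 0.13 (limma over probes, adjusted p = 0.0163) and 0.54 ± 0.22 (limma over probes, adjusted p = 0.109). Nid2 read 1.90, 1.99 and 2.04 in Arid3b-null trunks, against 0.92, 1.08 and 0.69 in wild type, without overlap, and rose 2.12-fold (1.08 ± 0.13 log2, SE, limma adjusted p = 0.00265). The ratio of Nid2 to Nid1 within arrays was higher in Arid3b-null by 0.40 ± 0.15 (log2, SE, two-sided exact permutation p = 0.1).

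The heparan sulfate proteoglycans of the basement membrane rose as well. Hspg2, which encodes perlecan, read 3.40, 3.65 and 3.36 in Arid3b-null trunks, against 2.84, 2.82 and 2.94 in wild type. Its rise was 1.52-fold (0.61 ± 0.12 log2, SE, limma adjusted p = 0.0130), a call lost without wild type replicate 1 (adjusted p = 0.0536). Agrn encodes agrin, which clusters acetylcholine receptors at the synapse of nerve and muscle and binds laminin. It read 4.70, 4.95 and 4.72 in Arid3b-null trunks, against 3.99, 4.09 and 3.91 in wild type and rose 1.73-fold (0.79 ± 0.12 log2, SE, limma adjusted p = 0.00525). The second probe of either gene also passed, Hspg2 with 0.73 ± 0.11 (limma over probes, adjusted p = 0.00597) and Agrn with 0.71 ± 0.16 (limma over probes, adjusted p = 0.0200), where 26.3% of all probes did.

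Of the 6 collagen IV genes 3 rose, 2 did not pass and Col4a3 was not tested. The chains of Col4a1 and Col4a2 form the collagen IV network of nearly all basement membranes, and their genes lie head to head. Col4a1 read 2.73, 2.78 and 2.91 in Arid3b-null trunks, against 2.40, 2.51 and 2.16 in wild type, and Col4a2 read 2.73, 2.70 and 2.97 in Arid3b-null trunks, against 2.19, 2.31 and 1.90 in wild type. All Arid3b-null arrays lay above wild type for both, and Arid3b-null replicate 3 was the highest and wild type replicate 3 the lowest for both. Col4a1 rose 1.37-fold (0.45 ± 0.13 log2, SE, limma adjusted p = 0.0419) and Col4a2 rose 1.59-fold (0.67 ± 0.15 log2, SE, limma adjusted p = 0.0196). The Col4a1 call was lost with the slide as a block, which is also the replicate number (adjusted p = 0.0773), with median scaling (0.0955) and without any 1 array (0.0508 to 0.110), and the Col4a2 call without Arid3b-null replicate 3 (0.0593) or wild type replicate 1 (0.0578). Within the 3 slides the changes were 0.34, 0.27 and 0.75 for Col4a1 and 0.54, 0.38 and 1.08 for Col4a2. The ratio of Col4a2 to Col4a1 within arrays was higher in Arid3b-null by 0.21 ± 0.05 (log2, SE, two-sided exact permutation p = 0.1), without overlap of the groups.

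The annotated starts of Col4a1 and Col4a2 in GRCm38.p6 are 21 bases apart on opposite strands, so that their promoter windows share 78 bases. The windows are printed because both of these neighbours rose, though not by the same amount. Col4a1 lies at chr8:11312777-11313076 on the minus strand and Col4a2 at chr8:11312555-11312854 on the plus strand, and capitals mark the bases common to both windows, which read as reverse complements of each other.
Col4a1: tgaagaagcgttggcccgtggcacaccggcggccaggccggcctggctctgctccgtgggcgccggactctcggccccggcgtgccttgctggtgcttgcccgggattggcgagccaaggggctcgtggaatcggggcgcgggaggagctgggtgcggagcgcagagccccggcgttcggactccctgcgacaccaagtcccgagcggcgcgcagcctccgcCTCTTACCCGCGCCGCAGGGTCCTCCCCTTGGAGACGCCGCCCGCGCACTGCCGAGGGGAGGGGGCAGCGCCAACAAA
Col4a2: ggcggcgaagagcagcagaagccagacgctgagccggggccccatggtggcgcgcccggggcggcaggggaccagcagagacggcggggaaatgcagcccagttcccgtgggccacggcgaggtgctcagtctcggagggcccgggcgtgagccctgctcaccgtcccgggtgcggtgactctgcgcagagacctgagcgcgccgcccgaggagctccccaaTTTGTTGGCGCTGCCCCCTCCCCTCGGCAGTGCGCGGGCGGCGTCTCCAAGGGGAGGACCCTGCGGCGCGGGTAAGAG
The windows hold 1 and 3 GC boxes, and each holds 1 match to the HIF core (ACGTG or GCGTG, either strand), the sequence bound by hypoxia-inducible factors. That core was found in 16 of the 35 member windows (45.7%) and in 43.8% of all windows, and in 7 of the 17 windows of members that rose. The sequence ATTAAA, the motif named ARID3A for the mouse paralogue Arid3a, was in 1 of the 35 member windows (2.86%) and in 13.9% of all windows. These matches describe the letters of the windows only.

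Col4a5 and Col4a6, another head-to-head pair, on the X chromosome, have annotated starts 1343 bases apart. Col4a6, a chain of smooth muscle and epithelial basement membranes, read 0.70, 0.86 and 0.68 in Arid3b-null trunks, against -0.36, -0.16 and -0.28 in wild type. It rose 2.02-fold on this probe (1.01 ± 0.11 log2, SE, limma adjusted p = 0.00209). Its dimmer probe read -2.86, -3.42 and -2.79 in Arid3b-null trunks, against -2.73, -3.07 and -3.11 in wild type. The groups overlapped on that probe, with a change of -0.05 ± 0.20 (limma over probes, adjusted p = 0.875). The probes of Col4a6 thus disagree, and the log2 ratio of the brighter to the dimmer probe was higher in Arid3b-null by 1.06 ± 0.31 (two-sided exact permutation p = 0.1). The promoter window of Col4a6, at chrX:141474027-141474326 on the minus strand, differs in composition from those above, with 48.3% G and C and 1 GC box in capitals.
Col4a6: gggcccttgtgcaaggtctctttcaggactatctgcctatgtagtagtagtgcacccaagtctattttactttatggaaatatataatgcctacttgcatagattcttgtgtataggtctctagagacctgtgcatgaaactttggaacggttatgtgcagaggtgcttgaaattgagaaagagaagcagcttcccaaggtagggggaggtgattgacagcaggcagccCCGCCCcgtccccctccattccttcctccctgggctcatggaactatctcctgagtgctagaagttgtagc
Col4a5 read -0.30, 0.46 and -0.08 in Arid3b-null trunks, against -0.55, -0.34 and -0.64 in wild type. Arid3b-null replicate 2 was the highest array, the groups did not overlap, and the change did not pass (0.54 ± 0.21 log2, SE, limma adjusted p = 0.101). The ratio of the brighter Col4a6 probe to Col4a5 within arrays was higher in Arid3b-null by 0.47 ± 0.18 (log2, SE, two-sided exact permutation p = 0.1), without overlap.

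Col4a3 and Col4a4, with Col4a5, encode the chains of the mature kidney filter. Col4a3 was well above background on 1 wild-type array and on no Arid3b-null array, so that it was not tested. Col4a4 read -5.62, -6.22 and -6.44 in Arid3b-null trunks, against -5.29, -5.55 and -4.85 in wild type, near the lower end of the measurable range, and did not pass (-0.86 ± 0.26 log2, SE, limma adjusted p = 0.0541). The probe entered the test only through wild type, where it was brighter, so its difference supports no statement here. Over the 17 alternatives its fitted change lay anywhere between -1.10 and -0.07 (adjusted p from 0.0284 to 0.718).

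**Figure D4:**
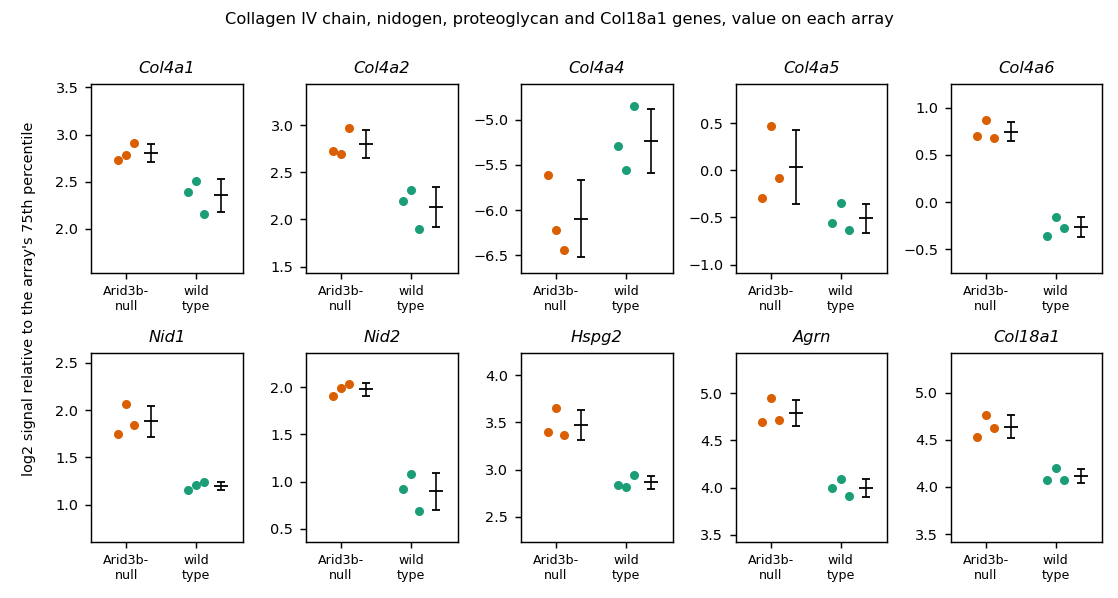
Log2 signal relative to the array's 75th percentile for the tested collagen IV chain genes, the nidogens, both proteoglycan genes and Col18a1. Points are arrays (Arid3b-null left, wild type right) and the bar is the mean with its SD (n = 3). Arid3b-null arrays lie above wild type in all panels but that of Col4a4, where they lie below.

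Of the multiplexin collagens 1 passed. Col18a1, whose fragment endostatin inhibits vessel growth, read 4.53, 4.77 and 4.62 in Arid3b-null trunks, against 4.08, 4.20 and 4.08 in wild type and rose 1.44-fold (0.52 ± 0.11 log2, SE, limma adjusted p = 0.0164). Its other probe rose by 0.88 ± 0.12 (limma over probes, adjusted p = 0.00400). The call of the brighter probe was lost without wild type replicate 1 (adjusted p = 0.0669). Col15a1, of vessel and muscle basement membranes, was dim and overlapped (-0.16 ± 0.19 log2, SE, limma adjusted p = 0.572).

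Fibulins bind laminins, nidogens and elastic fibres. Fbln2, found in basement membranes, read 2.0, 2.33 and 2.17 in Arid3b-null trunks, against 1.70, 1.68 and 1.60 in wild type and rose 1.42-fold (0.50 ± 0.12 log2, SE, limma adjusted p = 0.0242). Fbln5, needed to assemble elastic fibres, read -4.25, -3.71 and -4.18 in Arid3b-null trunks, against -3.41, -3.44 and -3.23 in wild type and fell 1.61-fold (-0.69 ± 0.17 log2, SE, limma adjusted p = 0.0259). Fbln1 read from 1.57 to 1.82 in Arid3b-null and from 1.25 to 1.61 in wild type, with overlap (0.30 ± 0.14 log2, SE, limma adjusted p = 0.148). Fbln2 no longer passed when Arid3b-null replicate 2 or 3, or any 1 wild-type array, was removed (adjusted p from 0.0628 to 0.0717), or with median scaling (0.0547). Fbln5 no longer passed when Arid3b-null replicate 1 or 3, or any 1 wild-type array, was removed (adjusted p from 0.0560 to 0.0802), or when normexp used the median background of the array (1.19-fold lower, adjusted p = 0.166).

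Of the 5 interstitial matrix genes only Fn1 passed. Fn1 encodes fibronectin, the matrix along which mesoderm and neural crest cells migrate. It read 4.81, 5.19 and 4.84 in Arid3b-null trunks, against 4.18, 4.46 and 4.42 in wild type and rose 1.51-fold (0.59 ± 0.15 log2, SE, limma adjusted p = 0.0283), but it no longer passed once Arid3b-null replicate 2 or 3, or any 1 wild-type array, was removed (adjusted p from 0.0537 to 0.0963). Vcan, the hyaluronan-binding proteoglycan versican, changed by 0.23 ± 0.15 (log2, SE, limma adjusted p = 0.315). The fibrillin genes of microfibrils, Fbn1 (0.23 ± 0.23 log2, SE, limma adjusted p = 0.502) and Fbn2 (0.09 ± 0.14 log2, SE, limma adjusted p = 0.660), did not pass, nor did Tnc, the tenascin C gene (0.01 ± 0.35 log2, SE, limma adjusted p = 0.983). In these 4 genes the arrays of the groups overlapped.

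Of the Sparc family, calcium-binding proteins that modulate contact between cells and matrix, Smoc2 read 1.18, 1.64 and 1.37 in Arid3b-null trunks, against 0.51, 0.92 and 0.65 in wild type and rose 1.63-fold (0.70 ± 0.17 log2, SE, limma adjusted p = 0.0239). Removing Arid3b-null replicate 2 or 3, or wild type replicate 1 or 3, ended the Smoc2 call (adjusted p from 0.0645 to 0.0819). Sparc itself, which binds collagen IV, read 6.15, 6.47 and 6.03 in Arid3b-null trunks, against 6.01, 6.09 and 6.02 in wild type. Its groups overlapped (0.17 ± 0.14 log2, SE, limma adjusted p = 0.389).

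The Fraser complex proteins anchor the epidermal basement membrane to the dermis and are named for the syndrome that their loss causes. None of its 3 genes passed, at an adjusted p over all genes, though all were above 0 in the fit. Fras1 read -0.25, 0.25 and 0.04 in Arid3b-null trunks, against -0.62, -0.45 and -0.21 in wild type (0.44 ± 0.17 log2, SE, limma adjusted p = 0.101). Frem1 read -0.45, -0.24 and -0.51 in Arid3b-null trunks, against -0.61, -1.35 and -0.44 in wild type, with wild type replicate 2 well below the other arrays (0.40 ± 0.24 log2, SE, limma adjusted p = 0.267). Frem2 read 0.38, 0.70 and 0.12 in Arid3b-null trunks, against -0.25, 0.01 and -0.06 in wild type, without overlap (0.50 ± 0.17 log2, SE, limma adjusted p = 0.0710). Frem2 was called higher without Arid3b-null replicate 3 (adjusted p = 0.0451), under normexp with local background and quantile normalization (0.0462) and under normexp with the array's median background (0.0428). The unadjusted p was 0.0370 for Fras1, 0.144 for Frem1 and 0.0221 for Frem2 (limma).

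Npnt, which encodes nephronectin, the ligand of the integrin whose alpha chain is Itga8, read -2.46, -2.37 and -2.48 in Arid3b-null trunks, against -3.15, -2.95 and -2.96 in wild type. It rose 1.49-fold (0.58 ± 0.11 log2, SE, limma adjusted p = 0.0108), and its second probe by 0.63 ± 0.14 (limma over probes, adjusted p = 0.0193). The signal was dim, and Npnt did not pass when normexp used the median background of the array (1.28-fold, adjusted p = 0.0658). With local background Npnt did not pass either, at 1.19-fold higher after quantile normalization (limma adjusted p = 0.0530). After 75th percentile scaling it was 1.24-fold lower (limma adjusted p = 0.726). Dag1, which encodes dystroglycan, a receptor that binds laminin, perlecan and agrin, read 2.27, 2.17 and 2.12 in Arid3b-null trunks, against 1.83, 2.10 and 1.71 in wild type. The Arid3b-null arrays lay just above wild type and the change did not pass (0.31 ± 0.13 log2, SE, limma adjusted p = 0.126). It passed in 1 alternative, normexp with local background and quantile normalization (adjusted p = 0.0491).

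**Figure D5:**
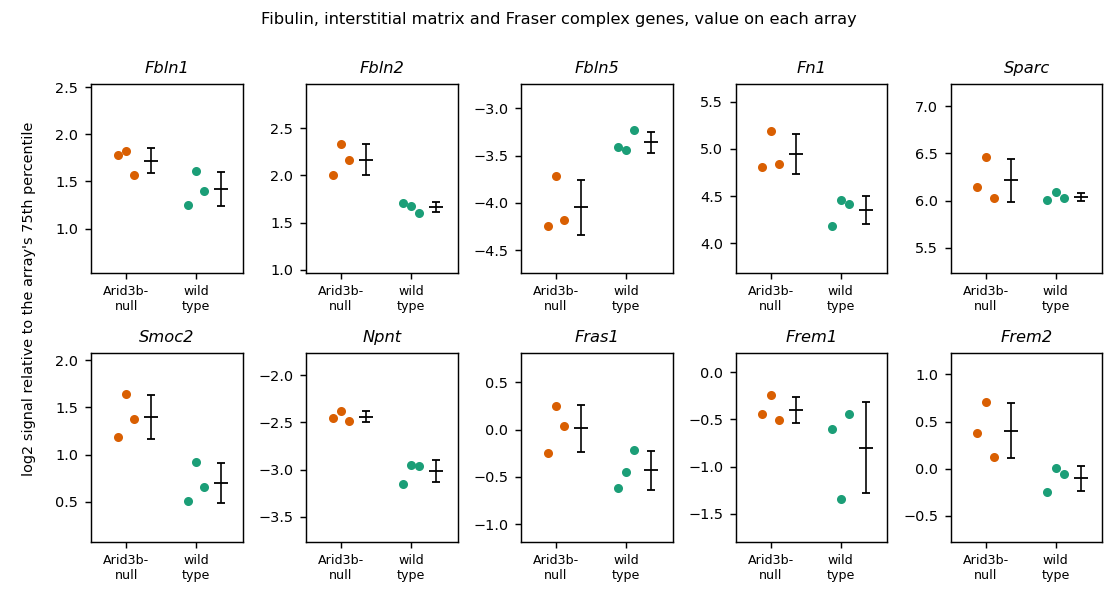
Log2 signal relative to the array's 75th percentile for fibulin, interstitial matrix, Sparc family, nephronectin and Fraser complex genes. Points are arrays (Arid3b-null left, wild type right) and the bar is the mean with its SD (n = 3). Arid3b-null arrays lie below wild type for Fbln5 and above it for Fbln2, Fn1, Smoc2, Npnt and Frem2, and the groups overlap for Fbln1, Sparc, Fras1 and Frem1.

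Other genes that bind, build or cut this matrix were counted from 6 lists. Of 115 tested 38 rose (33.0%) and 2 fell (1.74%), where 13.6% of all genes rose and 12.9% fell. With the slide as a block 31 rose and 5 fell, where 12.3% of all genes rose and 11.9% fell. Without wild type replicate 1 the rises numbered 21 and the falls 1, and without Arid3b-null replicate 2 they numbered 24 and 3. In these fits 2866 and 3430 of all genes passed, beside 5256 with all arrays. Among receptors of the basement membrane 5 of 15 rose and 0 fell. Itga8, the nephronectin receptor chain, read -0.65, -0.27 and -0.44 in Arid3b-null trunks, against -1.52, -1.39 and -1.54 in wild type and rose 2.04-fold (1.03 ± 0.13 log2, SE, limma adjusted p = 0.00305). Bcam, a receptor of the Lama5 chain, rose 2.18-fold (1.12 ± 0.19 log2, SE, limma adjusted p = 0.00824) and Itga3, an alpha chain of laminin-binding integrins, 2.09-fold (1.06 ± 0.22 log2, SE, limma adjusted p = 0.0147). The remaining 10 did not pass.

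The list of enzymes that fold and cross-link collagen held the largest rises, with 9 of 21 up and 1 down. Of all genes 13.6% rose and 12.9% fell. P4ha2 and P4ha1 encode catalytic chains of the prolyl hydroxylase that stabilises the collagen helix, and both are known targets of hypoxia-inducible factors. P4ha2 read 1.77, 1.95 and 1.74 in Arid3b-null trunks, against -0.65, -0.33 and -0.46 in wild type and rose 4.92-fold (2.30 ± 0.13 log2, SE, limma adjusted p = 0.000349). P4ha1 read 1.34, 1.51 and 1.11 in Arid3b-null trunks, against -0.80, -0.39 and -1.06 in wild type and rose 4.20-fold (2.07 ± 0.20 log2, SE, limma adjusted p = 0.00133). Loxl2, a lysyl oxidase that cross-links collagen IV, read 5.04, 5.14 and 5.33 in Arid3b-null trunks, against 3.31, 3.67 and 3.24 in wild type and rose 3.40-fold (1.77 ± 0.15 log2, SE, limma adjusted p = 0.00100). In each of these all Arid3b-null arrays lay above all wild-type arrays. The gene that fell was Bmp1, the procollagen C-proteinase, at 1.55-fold (limma adjusted p = 0.0129), named here after its value was seen.

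Of 12 tested further components of basement membranes 6 rose and 0 fell, beside 13.6% and 12.9% of all genes. Tinagl1, a matrix protein related to cathepsins, rose 2.33-fold (1.22 ± 0.22 log2, SE, limma adjusted p = 0.0101). Grip1, which traffics Fras1 and Frem2 proteins to the cell surface, rose 1.64-fold (0.72 ± 0.14 log2, SE, limma adjusted p = 0.0138).

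Interstitial collagens and elastic fibre genes gave 5 rises and 0 falls among 24, where 13.6% of all genes rose and 12.9% fell, led by the genes of latent TGF-beta binding proteins, Ltbp3 at 2.14-fold (1.10 ± 0.14 log2, SE, limma adjusted p = 0.00329) and Ltbp1 at 1.53-fold (0.61 ± 0.13 log2, SE, limma adjusted p = 0.0157), with Col6a1 at 1.59-fold (0.67 ± 0.14 log2, SE, limma adjusted p = 0.0177). Hyaluronan, proteoglycan and matricellular genes gave 9 rises and 0 falls among 27, beside the same shares of all genes. The glypican gene Gpc6 rose 1.66-fold (0.73 ± 0.12 log2, SE, limma adjusted p = 0.00721), Dcn, the decorin gene, 1.62-fold (0.70 ± 0.12 log2, SE, limma adjusted p = 0.00931) and the syndecan gene Sdc4 2.42-fold (1.27 ± 0.26 log2, SE, limma adjusted p = 0.0150). Among proteases and their inhibitors 4 rose and 1 fell of 16, again beside 13.6% and 12.9% of all genes. Reck, a membrane-anchored inhibitor of metalloproteinases, rose 1.79-fold (0.84 ± 0.12 log2, SE, limma adjusted p = 0.00435), Adamts1, which cleaves versican, 1.50-fold (0.59 ± 0.11 log2, SE, limma adjusted p = 0.0107), and Timp1, a secreted inhibitor of metalloproteinases, fell 1.55-fold (-0.63 ± 0.12 log2, SE, limma adjusted p = 0.0109).

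Markers of several cell types changed as well, some up and some down, and their part in the changes of the matrix genes was not tested. Their counts stand beside 13.6% of all genes that rose and 12.9% that fell. All 6 markers of early neurons fell, with summed signals of 1.42 to 1.74 times the 75th percentile in Arid3b-null and 7.10 to 9.04 in wild type. Of 6 markers of surface epithelium, the tissue above the epidermal basement membrane, 3 rose and 0 fell, with sums of 46.7 to 55.4 in Arid3b-null and 24.5 to 37.3 in wild type. A sum gives most weight to the brightest probe, here that of Krt18, which rose with Krt8 and Grhl2. Trp63 (-0.02 ± 0.18 log2, SE, limma adjusted p = 0.952), Epcam and Cdh1 did not pass. Of 6 neural tube progenitor markers 3 fell (sums of 7.69 to 8.52 in Arid3b-null and 14.3 to 15.8 in wild type). These were Sox3, the brightest of the list, Nkx6-1 and Olig2. Sox1, Sox2 (-0.02 ± 0.23 log2, SE, limma adjusted p = 0.946) and Pax6 (-0.09 ± 0.13 log2, SE, limma adjusted p = 0.646) did not pass. Of 7 markers of yolk sac endoderm 1 rose and 2 fell (sums of 3.58 to 6.95 in Arid3b-null and 8.51 to 10.2 in wild type). Afp, the brightest of that list, fell with Ttr, Sox7 rose, and the other 4 did not pass. None of the 6 endothelial markers passed in limma (1 had an unadjusted p under 0.05), with sums of 7.80 to 10.5 in Arid3b-null and 10.3 to 13.9 in wild type. Of 7 markers of somite and limb mesenchyme 1 fell, with sums of 18.8 to 22.5 in Arid3b-null and 21.2 to 22.3 in wild type.

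The remaining marker lists stand beside the same shares of all genes, 13.6% that rose and 12.9% that fell. Among them, 1 of 6 primitive erythroid genes fell (sums of 455 to 543 in Arid3b-null and 571 to 754 in wild type), and 1 rose and 1 fell of 5 in gut endoderm (3.09 to 3.73 in Arid3b-null and 2.91 to 3.41 in wild type). In cardiac muscle 0 of 6 passed, 1 at an unadjusted p under 0.05 (sums of 10.1 to 24.1 in Arid3b-null and 19.2 to 28.2 in wild type). In macrophages 1 rose and 1 fell of 3 tested (0.769 to 1.58 in Arid3b-null and 1.32 to 2.04 in wild type). The fall was that of Cx3cr1, whose probe was well above background on 1 of 3 Arid3b-null arrays. It entered the test through wild type alone, so its fall supports no statement here. None of the 3 tested markers of forebrain, which lies outside the dissected piece, passed, adjusted or not, and Six3 and the leukocyte marker Ptprc were too dim to be tested. A marker below background on every array could not enter the test, because dim probes were left out beforehand. The absence of such markers among those tested is therefore no result.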

How the data were processed

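The deposited files are the scanner output of 6 one-colour Agilent arrays, made with Feature Extraction 10.7.3.1 and named to mouse build mm9, per the file headers. The processed intensity of each spot had been corrected for background by the authors' scanner software, per the file headers. The log2 value table of the series was deposited by the authors without a stated scale, and it was used only as an alternative.

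Spots of a probe were averaged after control and outlier spots were left out, and log2 intensity was scaled to the 75th percentile of each array. A probe was tested if all 3 arrays of either group marked it well above background, and the brightest tested probe stood for its gene. Arid3b-null and wild type were compared with limma (version 3.58.1, R version 4.3.3) and Benjamini-Hochberg adjustment over 19792 genes, with a threshold of 0.05. The SE beside a limma result is that of the fit, which draws the variance of each gene toward that of all genes. The SE of a ratio uses the values of that ratio alone. The number of arrays limits the precision.

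Each slide held 1 array of either group with the same replicate number. Deviations from the group means correlated within slides (r = 0.163, 0.387 and 0.278) and ranged from r = -0.346 to 0.117 across slides. These values are not independent, as the deviations within a group sum to 0. The numbers pair the arrays by slide. The main fit and the ratios do not use this pairing, and the fit with slide as a block is given where it changed a result. In all 17 alternatives were run, among which the replicate block and the slide as a block are the same fit under different names. The members and gene lists were chosen with earlier results of these data known. Values on every array are given for members that passed, for the collagen IV, nidogen and Fraser complex genes and for the best member of a role without a call, and of each gene list at most 3 called genes with the smallest adjusted p are named, with any gene outside this rule marked so. The result of 1 listed gene is not reported here. Array values of other members (Lama1, Lama2, Lama3 and Sparc) were added after they were seen. Sequences are from the RefSeq promoter table, which had windows for 26 members.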

Additional observations from a re-analysis of the deposited data

How the results depend on the processing

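Under normexp with local background and scaling to the 75th percentile 0 members rose, 0 fell and 2 genes passed in all in limma, where 16 members and 1901 genes had an unadjusted p under 0.05, and the cause was not tested. The member median was 0.46 there. Without a filter on dim probes 8 members rose, 1 fell and 2286 genes passed, with more genes in the adjustment. Normexp with local background and quantile normalization, and normexp with the array's median background, gave 1 fall each (20 and 19 rises). Median scaling gave 16 rises, without Col4a1 and Fbln2, and 3 falls. The added fall was Col4a4 (adjusted p = 0.0318 in limma), whose probe entered the test through wild type alone and supports no statement. With the replicate block 17 members rose and 2 fell, and Col4a1 was the call that it ended. The slide as a random block gave 19 rises, Lama2 among them, and 3 falls, again with Col4a4 (adjusted p = 0.0423 in limma). With 1 array left out, 10 to 18 members rose, 1 to 2 fell and 2866 to 3934 genes passed, with the fewest without wild type replicate 1 (3430 genes without Arid3b-null replicate 2). Of the 20 calls, 11 held whichever array was left out. Signs turned in genes that had not passed, and in Npnt (-0.31 under normexp with local background and 75th percentile scaling). That setting gave Lama1 0.28, Lama3 -0.56, Fbn1 -0.038 and Tnc -0.63. Lama1 was 0.068 with quantile normalization, 0.080 with normexp and quantile normalization, and 0.057 in the deposited table. Col15a1 was 0.050 with the array's median background, and with the mean of probes Tnc was -0.0054 and Sparc -0.028. With 1 array left out Lama1 ranged from -0.16 to 0.035, Col15a1 from -0.29 to 0.0030, Fbn1 from -0.033 to 0.36, Fbn2 from -0.029 to 0.19 and Tnc from -0.32 to 0.18. Signal over background limits what can be said of dim genes such as Lamb3, Lamc3, Npnt, Fbln5 and Col4a4.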
